A study of Mus musculus with 48 samples.

Results

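Genes of GABA and glycine transmission, 29 of the 47069 annotated genes counted, were examined in 48 RNA-seq libraries of mouse brain. The members were chosen by name and role, with earlier results of these data known. They comprise 14 subunits of GABA-A receptors, both subunits of the GABA-B receptor, 4 glycine receptor subunits, the synaptic organisers Gphn and Nlgn2, 2 GABA-synthesising enzymes, the vesicular and astrocytic transporters Slc32a1 and Slc6a11, the degrading enzyme Abat, and the chloride cotransporters Slc12a5 and Slc12a2. A further 35 genes of the pathway, other transporters among them, are described in brief near the end. The remaining subunits and transporters were not analysed here. Each of 16 mice of a mixed C57BL/6N and 129Sv background gave 1 library each from tissue labelled striatum, cortex and cerebellum. The deletion animals, 4 males (D801 to D804) and 4 females (D809 to D812), were heterozygous for a deletion of chromosome band 7qF3, the mouse counterpart of human 16p11.2. The wild-type animals, 4 males (W805 to W808) and 4 females (W813 to W816), carried both copies. The labels give no treatment. The age field holds a date in place of an age, and males carry one date and females the other, which leaves sex and date confounded.

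GABA and glycine are the main inhibitory transmitters of the brain and spinal cord. GABA is made from glutamate by the decarboxylases that Gad1 and Gad2 encode, loaded into vesicles by the transporter Slc32a1, taken up by astrocytes through Slc6a11, and broken down by the transaminase Abat. GABA-A and glycine receptors are pentameric chloride channels whose subunit mix sets where they sit and how they respond, while GABA-B is a G protein-coupled receptor made of Gabbr1 and Gabbr2. The direction of the chloride current depends on Slc12a5 (KCC2), which extrudes chloride from neurons, and on Slc12a2 (NKCC1), which brings it in. In bulk tissue, fewer cells of a type and less RNA per cell cannot be told apart.

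The libraries held 29244745 to 60751792 counts assigned to genes (median 32232112), and levels in RPKM are reads scaled to exon length and to normalised library size. Taok2, a gene of the deleted interval, lay at 61.9 to 85.0 CPM (counts scaled to library size only) in the 24 deletion libraries, against 129 to 188 CPM in the 24 wild-type libraries. By Taok2, the genotype labels were thus not contradicted in any library. Mapk3 and Kctd13, also of the interval, had lower medians in deletion than in wild type in each tissue. Their ranges overlapped between genotypes in cerebellum. In cortex those of Mapk3 overlapped too, at 83.1 to 193 CPM in deletion and 121 to 316 CPM in wild type. The tissue labels held up less well between striatum and cortex. In wild-type animals, 0 of 15 striatal identity markers such as Drd1 and Adora2a were called between the libraries labelled striatum and those labelled cortex. Of 13 cortical identity markers, 7 were called lower in striatum (median log2 fold change -1.86). Of 8 thalamic markers, 6 were called higher there (median 1.42). The summed level of the striatal identity markers spanned 1040 to 11770 CPM in deletion and 752 to 6896 CPM in wild-type striatum. In cortex it spanned 1274 to 6226 CPM in deletion and 641 to 4146 CPM in wild type. A list of 12 hypothalamic and basal forebrain markers, drawn up after the data had been seen, had 8 of 9 tested markers called higher in wild-type striatum than in wild-type cortex. Its summed level ran over 18.5 to 2419 CPM in deletion and 28.8 to 3110 CPM in wild-type striatum, and over 3.87 to 92.4 CPM in deletion and 3.45 to 69.4 CPM in wild-type cortex. Striatum and cortex below therefore mean the libraries so labelled. The 12 cerebellar identity markers were all called lower in striatum and in cortex than in cerebellum. Within cerebellum, 1 deletion library (D809) stood apart, with a mean level of 5.93 log2 CPM for these markers against 7.45 to 8.60 in the other 15 cerebellum libraries.

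The start regions of 5 members are shown: Gabra6 as the gene of the widest regional difference described below, Gabre and Gabrq as the members with the widest striatum to cortex fold changes, and Gabra4 and Gabrb1 because their starts lie close together. Nuclear factor I proteins, which bind the half-site TTGGC on either strand, are known to bind the Gabra6 promoter in cerebellar granule neurons. Each run below covers 300 bases of the mouse assembly GRCm38.p6 as listed by RefSeq, from 250 bases before to 50 bases after a transcript start, with every half-site (TTGGC, or GCCAA when it lies on the opposite strand) in capitals. The Gabra6 window is chr11:42321023-42321322 on the minus strand, the Gabra4 window chr5:71658259-71658558 on the minus strand, the Gabrb1 window chr5:71657671-71657970 on the plus strand, the Gabre window chrX:72274672-72274971 on the minus strand and the Gabrq window chrX:72824928-72825227 on the plus strand.
Gabra6: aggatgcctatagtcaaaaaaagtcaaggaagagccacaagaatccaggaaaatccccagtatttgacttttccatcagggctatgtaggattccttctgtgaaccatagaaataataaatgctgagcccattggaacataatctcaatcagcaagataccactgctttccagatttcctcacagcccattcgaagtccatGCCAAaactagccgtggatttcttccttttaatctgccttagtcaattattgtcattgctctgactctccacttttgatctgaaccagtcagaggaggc
Gabra4: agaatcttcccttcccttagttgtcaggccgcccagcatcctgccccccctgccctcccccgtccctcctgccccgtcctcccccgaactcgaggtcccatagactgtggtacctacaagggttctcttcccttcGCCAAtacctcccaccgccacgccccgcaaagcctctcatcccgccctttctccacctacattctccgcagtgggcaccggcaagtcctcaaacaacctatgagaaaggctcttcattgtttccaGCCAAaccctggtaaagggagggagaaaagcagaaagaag
Gabrb1: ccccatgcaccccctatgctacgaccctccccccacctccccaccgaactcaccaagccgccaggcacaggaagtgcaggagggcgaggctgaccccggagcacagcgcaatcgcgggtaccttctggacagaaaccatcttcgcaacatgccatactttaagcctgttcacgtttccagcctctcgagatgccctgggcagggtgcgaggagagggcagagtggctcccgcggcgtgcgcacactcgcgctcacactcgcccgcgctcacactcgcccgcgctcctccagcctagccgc
Gabre: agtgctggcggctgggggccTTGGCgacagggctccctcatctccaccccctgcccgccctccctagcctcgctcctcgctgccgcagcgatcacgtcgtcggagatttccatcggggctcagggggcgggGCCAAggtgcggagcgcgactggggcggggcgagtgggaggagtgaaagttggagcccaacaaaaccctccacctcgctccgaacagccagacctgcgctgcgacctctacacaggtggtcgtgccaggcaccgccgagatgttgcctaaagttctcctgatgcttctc
Gabrq: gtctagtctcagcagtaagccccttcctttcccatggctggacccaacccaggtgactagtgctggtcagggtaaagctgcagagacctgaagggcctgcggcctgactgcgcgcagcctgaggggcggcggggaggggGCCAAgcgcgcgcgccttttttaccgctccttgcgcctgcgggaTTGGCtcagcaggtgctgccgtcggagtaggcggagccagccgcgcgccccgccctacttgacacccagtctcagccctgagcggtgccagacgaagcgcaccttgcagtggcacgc

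The Gabra6 window held 1 half-site, the Gabra4, Gabre and Gabrq windows 2 each, and the Gabrb1 window 0. Such half-sites are common letters: 15344 of all 32851 mouse promoters in the table (46.7%) held at least 1, as did 13 of the 30 windows found for 25 members. The complete palindrome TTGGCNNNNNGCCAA, found in 12 of all promoters (0.0365%), was in none of the 30. Neither TGACGTCA, the cyclic AMP response element (588 promoters, 1.79%), nor TATAAA, the TATA box (4473 promoters, 13.6%), was present on either strand of the 5 windows printed. No motif here overlaps another one searched except the palindrome, which contains the half-site at both ends. By base composition the Gabra6 window stood apart from the others printed, at 42.0% G and C, against 58.7% for Gabra4, 66.0% for Gabrb1, 66.7% for Gabre and 67.0% for Gabrq. The Gabra4 and Gabrb1 starts lie 387 bases apart on opposite strands with overlapping 5′ ends, and RefSeq lists a second, downstream start for Gabrb1.

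Most of the receptor subunit genes lie in chromosomal clusters. On chromosome 5 (GRCm38) stand Gabrg1 (chr5:70751047-70842617), Gabra2 (chr5:70957597-71095849), Gabra4 (chr5:71569749-71658308) and Gabrb1 (chr5:71658113-72149037). Chromosome X holds Gabre (chrX:72255999-72274803), Gabra3 (chrX:72432681-72656848) and Gabrq (chrX:72825178-72842602), chromosome 7 holds Gabrg3 (chr7:56716465-57387188) and Gabra5 (chr7:57407672-57510059), and chromosome 11 holds Gabra6 (chr11:42306437-42321072) and Gabrb2 (chr11:42419757-42629028). All 9 members of the clusters on chromosomes 5, X and 7 were called higher in wild-type striatum than in wild-type cerebellum, as were 15% of all genes tested. Of the pair on chromosome 11, Gabra6 was called lower there, and Gabrb2 was not called. Chromosome 4 holds the pair Gabrr2 (chr4:33062999-33095865) and Gabrr1 (chr4:33132521-33163588), of which Gabrr2 was not called there, at -0.63 ± 0.25 (adjusted p = 0.0376), and Gabrr1 was not tested. A member was called in these regional contrasts at an adjusted p under 0.05 (edgeR quasi-likelihood test, Benjamini-Hochberg over all genes tested) and a fold change of at least 1 on the log2 scale.

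**Figure D1:**
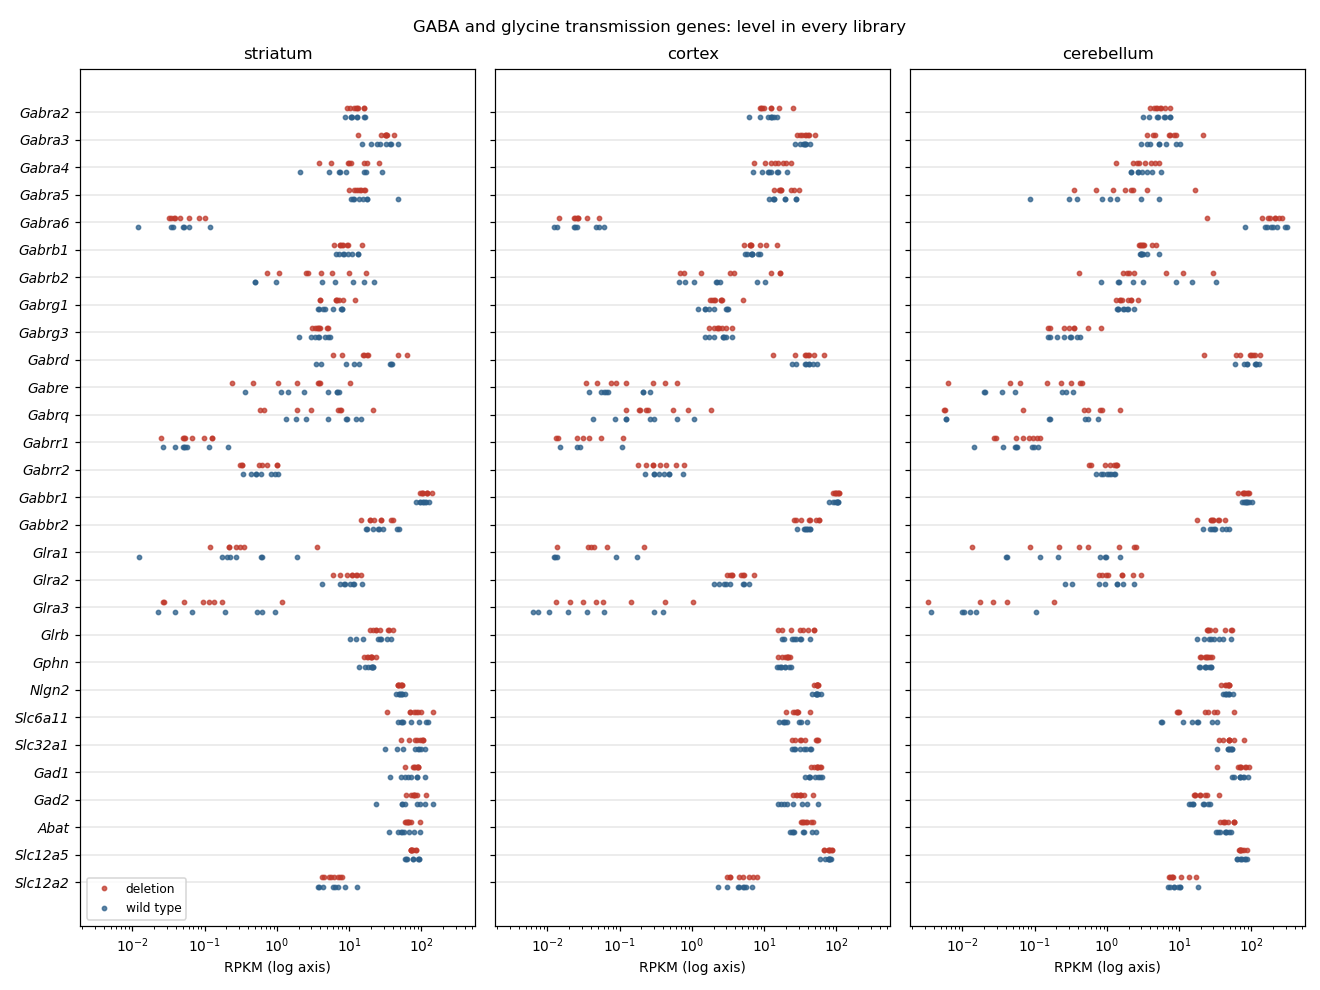
Levels of the 29 members in RPKM (log axis) by tissue label, 1 point per library, 8 libraries per group, with deletion above wild type in each gene's row. Libraries with 0 counts are not drawn. Gabra6 in cerebellum stands apart from both other tissues in every library, while Gabbr1, Slc12a5, Nlgn2 and Gphn stay in a narrow band everywhere.

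Gabra6, the α6 subunit of cerebellar granule cell receptors, gave the widest regional fold change of the members tested. In cerebellum its lowest, median and highest levels were 24.6, 198 and 265 RPKM in deletion and 82.2, 192 and 315 RPKM in wild-type libraries. No library of striatum exceeded 0.117 RPKM, and 1 of them (W813) had 0 counts, which allows up to 0.0391 RPKM at 3 counts. The groups were thus separated by orders of magnitude, with no overlap. The log2 fold change of striatum against cerebellum was -12.06 ± 0.39 (adjusted p = 3.6e-16) in wild type, with -11.74 ± 0.42 in deletion libraries, and that of cortex against cerebellum was -12.52 ± 0.41 (adjusted p = 3.01e-16) in wild type, with -12.58 ± 0.45 in deletion libraries. Gabrd, the δ subunit that joins α6 in extrasynaptic granule cell receptors, was also highest in cerebellum, at 87.3 ± 35.0 RPKM in deletion and 98.6 ± 23.4 RPKM in wild-type libraries (SD, n = 8 each). It averaged 23.96 ± 20.1 RPKM in deletion and 19.4 ± 15.6 RPKM in wild-type striatum, and 39.2 ± 15.5 RPKM in deletion and 39.0 ± 9.94 RPKM in wild-type cortex. Striatum against cerebellum gave -2.34 ± 0.41 (adjusted p = 5.18e-05) in wild type, with -1.87 ± 0.43 in deletion libraries. Cortex against cerebellum gave -1.33 ± 0.40 (adjusted p = 0.0076) in wild type, with -1.15 ± 0.42 in deletion libraries. That call was lost (adjusted p = 0.0567) when the wild-type cortex libraries W805, W806, W815 and W816, which had the most striatal markers, were left out. Library D809 was lowest of its group for both genes, at 24.6 RPKM for Gabra6 and 21.9 RPKM for Gabrd.

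The forebrain α subunits were lower in cerebellum. Gabra2, which is enriched at axon initial segments, averaged 12.8 ± 2.45 RPKM in deletion and 12.4 ± 2.74 RPKM in wild-type striatum, 12.9 ± 5.47 RPKM in deletion and 11.7 ± 2.85 RPKM in wild-type cortex, and 5.41 ± 1.10 RPKM in deletion and 5.58 ± 1.59 RPKM in wild-type cerebellum. Its log2 fold change of striatum against cerebellum was 1.16 ± 0.19 (adjusted p = 2.13e-05) in wild type, with 1.22 ± 0.20 in deletion libraries. None of the 16 striatum libraries overlapped the 16 cerebellum libraries. Gabra3, the α3 subunit of several monoaminergic and thalamic reticular neurons, averaged 30.5 ± 7.94 RPKM in deletion and 30.2 ± 10.6 RPKM in wild-type striatum, 37.8 ± 6.92 RPKM in deletion and 35.4 ± 5.04 RPKM in wild-type cortex, and 8.30 ± 5.75 RPKM in deletion and 5.86 ± 2.63 RPKM in wild-type cerebellum. The cortex to cerebellum log2 fold change of Gabra3 was 2.60 ± 0.26 (adjusted p = 1.48e-08) in wild type, with 2.18 ± 0.28 in deletion libraries, again with no overlap over 16 against 16 libraries. For Gabra4, the extrasynaptic forebrain partner of δ, the averages were 12.4 ± 7.10 RPKM in deletion and 11.6 ± 8.53 RPKM in wild-type striatum, 15.3 ± 5.33 RPKM in deletion and 12.95 ± 4.33 RPKM in wild-type cortex, and 3.31 ± 1.30 RPKM in deletion and 3.30 ± 1.18 RPKM in wild-type cerebellum. Its fold change was 1.97 ± 0.37 (adjusted p = 0.000115) in wild type, with 2.17 ± 0.35 in deletion libraries, for cortex against cerebellum. Gabra5, the α5 subunit best known for tonic inhibition in hippocampus, had its lowest, median and highest levels at 10.03, 13.7 and 16.8 RPKM in deletion and 10.6, 14.8 and 47.1 RPKM in wild-type striatum. In cerebellum the corresponding values were 0.352, 1.97 and 16.7 RPKM in deletion and 0.0860, 0.989 and 5.20 RPKM in wild type. The cerebellar deletion maximum was D809, which lay above the lowest striatum library. The wild-type fold change of Gabra5 was 3.56 ± 0.57 (adjusted p = 1.55e-05) for striatum against cerebellum and 3.62 ± 0.57 (adjusted p = 1.25e-05) for cortex against cerebellum, with 2.01 ± 0.51 and 2.63 ± 0.52 in deletion libraries. None of these 4 forebrain α subunits was called between striatum and cortex.

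Of the β subunits, Gabrb1 averaged 8.92 ± 2.796 RPKM in deletion and 9.70 ± 2.62 RPKM in wild-type striatum, 8.21 ± 3.26 RPKM in deletion and 6.89 ± 1.12 RPKM in wild-type cortex, and 3.40 ± 0.712 RPKM in deletion and 3.36 ± 0.783 RPKM in wild-type cerebellum. Its fold change was 1.52 ± 0.16 (adjusted p = 3.71e-08) in wild type, with 1.35 ± 0.20 in deletion libraries, for striatum against cerebellum, where 16 and 16 libraries did not overlap. Against cerebellum, cortex gave 1.04 ± 0.15 (adjusted p = 6.1e-06), which fell under the size threshold, to 0.95, without the 4 cortex libraries named above. Gabrb2, the β2 subunit of the most common synaptic receptor, varied more between libraries than between tissues. Lowest, median and highest levels of Gabrb2 were 0.728, 3.38 and 17.2 RPKM in deletion and 0.492, 5.37 and 21.9 RPKM in wild-type striatum. In cortex they were 0.681, 3.58 and 16.8 RPKM in deletion and 0.666, 2.20 and 10.2 RPKM in wild type, and in cerebellum 0.416, 2.22 and 29.2 RPKM in deletion and 0.840, 2.74 and 32.3 RPKM in wild type. The 6 groups overlapped widely, and no regional contrast of Gabrb2 was called, the log2 fold changes in wild type being 1.12 ± 0.88 (adjusted p = 0.409), -0.18 ± 0.97 (adjusted p = 0.901) and -1.30 ± 0.90 (adjusted p = 0.244) for striatum against cortex, striatum against cerebellum and cortex against cerebellum.

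Of the γ subunits, Gabrg1 was called higher in striatum than in both other tissues, and Gabrg3 lower in cerebellum than in both others. Gabrg1, found in glia and in subcortical neurons, averaged 6.92 ± 2.58 RPKM in deletion and 5.79 ± 1.91 RPKM in wild-type striatum, 2.57 ± 1.06 RPKM in deletion and 2.15 ± 0.794 RPKM in wild-type cortex, and 1.87 ± 0.440 RPKM in deletion and 1.73 ± 0.338 RPKM in wild-type cerebellum. Its fold change was 1.43 ± 0.22 (adjusted p = 0.000147) in wild type, with 1.43 ± 0.22 in deletion libraries, for striatum against cortex, and 1.75 ± 0.23 (adjusted p = 9.14e-07) in wild type, with 1.84 ± 0.23 in deletion libraries, for striatum against cerebellum. Gabrg3 averaged 3.97 ± 0.745 RPKM in deletion and 3.89 ± 1.15 RPKM in wild-type striatum, 2.49 ± 0.585 RPKM in deletion and 2.48 ± 0.688 RPKM in wild-type cortex, and 0.370 ± 0.229 RPKM in deletion and 0.278 ± 0.101 RPKM in wild-type cerebellum, where all 16 libraries lay below all 32 of the other tissues. The corresponding Gabrg3 fold changes against cerebellum were 3.82 ± 0.26 (adjusted p = 6.03e-11) for striatum and 3.17 ± 0.25 (adjusted p = 5.78e-10) for cortex in wild type, and 3.41 ± 0.28 and 2.74 ± 0.28 in deletion libraries.

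Gabre and Gabrq encode the ε and θ subunits, which are known from hypothalamic and brainstem monoaminergic neurons and stand on chromosome X with their start regions printed above. Gabre had lowest, median and highest levels of 0.239, 2.84 and 10.4 RPKM in deletion and 0.358, 3.79 and 7.19 RPKM in wild-type striatum, and of 0.0338, 0.106 and 0.630 RPKM in deletion and 0.0380, 0.0663 and 0.263 RPKM in wild-type cortex. In cerebellum the Gabre values were 0.00632, 0.189 and 0.448 RPKM in deletion and 0, 0.0448 and 0.345 RPKM in wild type, where W814 had 0 counts and up to 0.0208 RPKM is allowed. Both striatum groups reached far above the other tissues but came down to within their range, so the groups overlapped. Gabrq ran at 0.587, 4.94 and 21.2 RPKM in deletion and 1.33, 7.07 and 14.8 RPKM in wild-type striatum, and at 0.122, 0.239 and 1.82 RPKM in deletion and 0.0422, 0.194 and 1.06 RPKM in wild-type cortex. In cerebellum Gabrq ran at 0.00559, 0.514 and 1.53 RPKM in deletion and 0, 0.160 and 0.762 RPKM in wild type, where the 0 is again W814 (up to 0.0184 RPKM). The log2 fold change of Gabre was 5.01 ± 0.78 (adjusted p = 0.000147) in wild type, with 3.88 ± 0.79 in deletion libraries, for striatum against cortex. That of Gabrq was 4.43 ± 0.87 (adjusted p = 0.00095) in wild type, with 3.58 ± 0.89 in deletion libraries. Against cerebellum the striatum values in wild type were 4.99 ± 0.78 (adjusted p = 1.29e-05) for Gabre and 4.72 ± 0.89 (adjusted p = 0.000111) for Gabrq, with 3.87 ± 0.79 and 3.39 ± 0.88 in deletion libraries.

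Within the 16 striatum libraries, both genes tracked the hypothalamic and basal forebrain markers. The mean level of these markers ranged over -0.74 to 5.52 log2 CPM in deletion and 0.18 to 6.33 in wild type. That marker list was drawn up after the data had been seen, and the members related to it were the 8 called between striatum and cortex. The permutation p-values below do not allow for either choice. Pearson's r was 0.829 for Gabre and Spearman's rho 0.809, with permutation p of 9e-05 and 0.00032, adjusted over 16 relations to 0.00136 and 0.00256. For Gabrq r was 0.810 and rho 0.826 (permutation p = 0.00017 and 0.00016, adjusted 0.00136 and 0.00256). Without the 2 libraries farthest from the median marker level, r was 0.865 for Gabre and 0.860 for Gabrq. For Slc6a11, r was 0.608 and rho 0.650 (permutation p = 0.0127 and 0.00783, adjusted 0.0434 and 0.0418), and 0.597 without 2. The other 5 of the 8 members called between striatum and cortex did not pass the threshold, with r of 0.298 for Gabrg1, 0.294 for Glra1, 0.0740 for Glra2, 0.116 for Slc32a1 and -0.0940 for Gad2 (adjusted permutation p = 0.437, 0.437, 0.788, 0.770 and 0.788). Without the 2 farthest libraries these were 0.480, 0.482, 0.179, 0.0120 and 0.0260. The striatal identity score gave an r of -0.607 with Gabre and -0.617 with Gabrq (adjusted permutation p = 0.0434 and 0.0434), with rho of -0.544 and -0.621 (adjusted permutation p = 0.102 and 0.0489). Without the 2 farthest libraries those r were -0.479 and -0.486. The spread of these markers over the striatum libraries moved with both subunits, and its part in the regional differences was not tested.

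**Figure D2:**
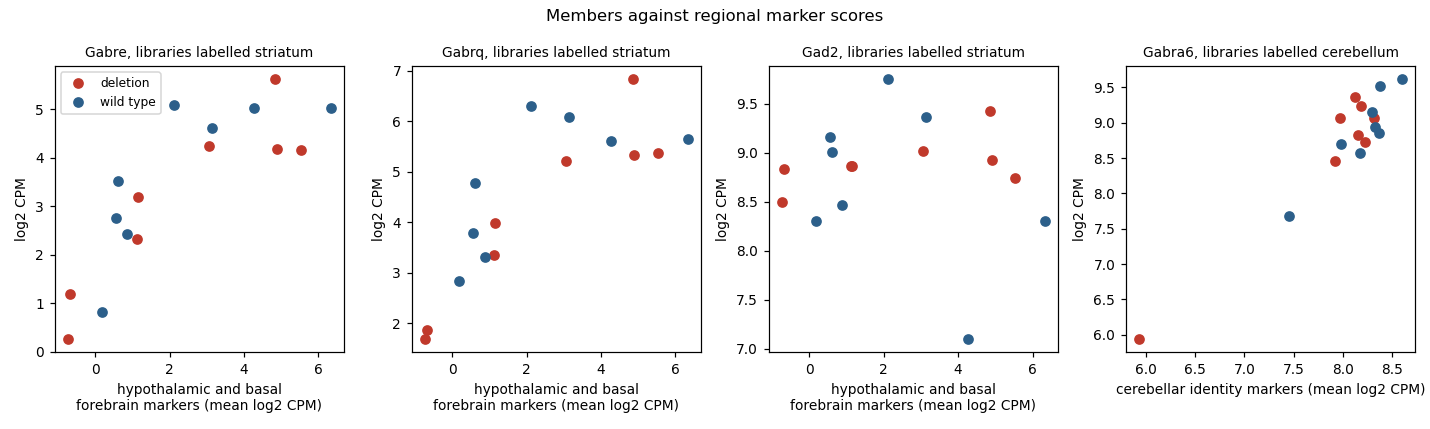
Levels of Gabre, Gabrq and Gad2 (log2 CPM) against the mean level of 12 hypothalamic and basal forebrain markers (log2 CPM) in the 16 striatum libraries, and of Gabra6 against the mean level of 12 cerebellar identity markers in the 16 cerebellum libraries, 1 point per library coloured by genotype. Gabre and Gabrq climb with the markers in both genotypes, with r of 0.829 and 0.810, while Gad2 gives an r of -0.0940, and D809 is the isolated low point of the Gabra6 panel at 5.93 on the marker axis.

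The ρ subunits, known from retina, were scarce. Gabrr1 gave 0 to 18 counts per library and was not tested. In cortex 1 of 8 deletion and 4 of 8 wild-type libraries had 0 counts of Gabrr1, which allows up to 0.0429 RPKM in any of them. Gabrr2 averaged 0.611 ± 0.285 RPKM in deletion and 0.653 ± 0.251 RPKM in wild-type striatum, 0.399 ± 0.205 RPKM in deletion and 0.414 ± 0.166 RPKM in wild-type cortex, and 1.07 ± 0.337 RPKM in deletion and 1.03 ± 0.210 RPKM in wild-type cerebellum. Cortex against cerebellum was called for Gabrr2, at -1.30 ± 0.25 (adjusted p = 0.00014) in wild type, with -1.45 ± 0.28 in deletion libraries.

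The GABA-B receptor genes were not called in any wild-type regional contrast. Gabbr1, the ligand-binding subunit, had the highest level per length of the receptor genes among the 29 members in striatum and cortex, at 114 ± 15.2 RPKM in deletion and 106 ± 13.9 RPKM in wild-type striatum, 101 ± 6.38 RPKM in deletion and 97.8 ± 9.12 RPKM in wild-type cortex, and 81.3 ± 8.75 RPKM in deletion and 86.7 ± 8.73 RPKM in wild-type cerebellum. Gabbr2, the subunit that couples to G proteins, averaged 26.3 ± 9.29 RPKM in deletion and 29.1 ± 12.1 RPKM in wild-type striatum, 42.2 ± 12.5 RPKM in deletion and 38.4 ± 4.79 RPKM in wild-type cortex, and 30.7 ± 7.32 RPKM in deletion and 34.0 ± 9.47 RPKM in wild-type cerebellum. The largest wild-type fold change of the pair was -0.42 ± 0.21 (adjusted p = 0.171) for Gabbr2 in striatum against cortex. The same contrast in deletion libraries gave -0.71 ± 0.21 (adjusted p = 0.0182), past the threshold on p and below that on size.

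Among glycine receptor subunits, Glra2, the α2 subunit of forebrain neurons, was graded over the tissues at 10.6 ± 2.86 RPKM in deletion and 9.69 ± 3.27 RPKM in wild-type striatum, 4.49 ± 1.38 RPKM in deletion and 3.77 ± 1.56 RPKM in wild-type cortex, and 1.52 ± 0.780 RPKM in deletion and 1.14 ± 0.712 RPKM in wild-type cerebellum. All 3 contrasts of Glra2 were called, at 1.36 ± 0.36 (adjusted p = 0.0103) in wild type, with 1.22 ± 0.26 in deletion libraries, for striatum against cortex, 3.09 ± 0.39 (adjusted p = 6.49e-07) in wild type, with 2.76 ± 0.28 in deletion libraries, for striatum against cerebellum, and 1.73 ± 0.37 (adjusted p = 0.000446) in wild type, with 1.53 ± 0.27 in deletion libraries, for cortex against cerebellum. Glra1, the adult spinal and brainstem subunit, was low. Its lowest, median and highest levels were 0, 0.244 and 3.60 RPKM in deletion and 0.0125, 0.246 and 1.89 RPKM in wild-type striatum, and 0.0138, 0.481 and 2.57 RPKM in deletion and 0.0397, 0.514 and 1.54 RPKM in wild-type cerebellum. The striatum library at 0 was D801, which allows up to 0.0374 RPKM. In cortex 2 deletion libraries and 3 wild-type libraries had 0 counts of Glra1, and the other values reached 0.216 RPKM in deletion and 0.172 RPKM in wild type. Glra1 was called higher in striatum than in cortex, at 3.60 ± 0.96 (adjusted p = 0.0103) in wild type, with 3.48 ± 0.97 in deletion libraries, and lower in cortex than in cerebellum, at -3.99 ± 0.97 (adjusted p = 0.00145) in wild type, with -4.48 ± 0.99 in deletion libraries. Glra3 averaged 0.225 ± 0.388 RPKM in deletion and 0.303 ± 0.354 RPKM in wild-type striatum, 0.220 ± 0.351 RPKM in deletion and 0.106 ± 0.156 RPKM in wild-type cortex, and 0.0346 ± 0.0638 RPKM in deletion and 0.0195 ± 0.0347 RPKM in wild-type cerebellum, with 3 deletion and 2 wild-type cerebellum libraries at 0 counts, which allows up to 0.0108 RPKM in any of them. It was called in striatum against cerebellum, at 4.003 ± 1.18 (adjusted p = 0.0073) in wild type. In deletion libraries that contrast was not called, at 2.15 ± 1.14 (adjusted p = 0.133). Glrb, the β subunit that anchors glycine receptors to gephyrin, was abundant in every tissue, at 28.4 ± 7.82 RPKM in deletion and 23.7 ± 9.91 RPKM in wild-type striatum, 32.6 ± 13.2 RPKM in deletion and 27.9 ± 8.26 RPKM in wild-type cortex, and 35.2 ± 12.5 RPKM in deletion and 31.7 ± 11.1 RPKM in wild-type cerebellum. No regional contrast of Glrb was called.

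The organisers of the inhibitory synapse were nearly level across tissues. Gphn, which encodes the receptor-clustering scaffold gephyrin, averaged 19.6 ± 2.16 RPKM in deletion and 19.1 ± 2.78 RPKM in wild-type striatum, 20.03 ± 2.44 RPKM in deletion and 18.8 ± 2.88 RPKM in wild-type cortex, and 23.9 ± 3.17 RPKM in deletion and 23.8 ± 3.51 RPKM in wild-type cerebellum. Nlgn2, the adhesion molecule neuroligin 2, averaged 50.8 ± 2.67 RPKM in deletion and 51.7 ± 4.37 RPKM in wild-type striatum, 53.7 ± 1.94 RPKM in deletion and 53.7 ± 4.48 RPKM in wild-type cortex, and 45.9 ± 3.94 RPKM in deletion and 46.9 ± 4.27 RPKM in wild-type cerebellum. The widest fold change of Gphn in wild type was -0.33 ± 0.11 (adjusted p = 0.0174) for cortex against cerebellum, and that of Nlgn2 was 0.20 ± 0.07 (adjusted p = 0.0214), both below the size threshold.

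Of the genes of GABA synthesis and packaging, Gad2 and Slc32a1 were called higher in striatum than in cortex, Gad2 also higher in striatum than in cerebellum, and Gad1 in no contrast. Gad2, which encodes the GAD65 enzyme of nerve endings, had lowest, median and highest levels of 61.3, 79.2 and 117 RPKM in deletion and 23.3, 74.0 and 146 RPKM in wild-type striatum. In cortex its levels were 25.2, 31.5 and 48.1 RPKM in deletion and 15.7, 22.9 and 55.2 RPKM in wild type, and in cerebellum 16.4, 19.6 and 35.9 RPKM in deletion and 13.7, 18.5 and 27.2 RPKM in wild type. The Gad2 fold change was 1.496 ± 0.31 (adjusted p = 0.00154) in wild type, with 1.32 ± 0.17 in deletion libraries, for striatum against cortex, and 2.04 ± 0.32 (adjusted p = 1.07e-05) in wild type, with 1.91 ± 0.17 in deletion libraries, for striatum against cerebellum. Slc32a1 averaged 87.3 ± 19.3 RPKM in deletion and 76.0 ± 28.4 RPKM in wild-type striatum, 39.4 ± 13.04 RPKM in deletion and 33.9 ± 7.85 RPKM in wild-type cortex, and 51.3 ± 12.6 RPKM in deletion and 48.3 ± 6.40 RPKM in wild-type cerebellum. Its striatum to cortex fold change was 1.14 ± 0.20 (adjusted p = 0.000346) in wild type, with 1.13 ± 0.19 in deletion libraries. Gad1, which encodes GAD67, the enzyme of the cell body and axon, averaged 81.4 ± 10.3 RPKM in deletion and 71.5 ± 23.3 RPKM in wild-type striatum, 54.1 ± 5.55 RPKM in deletion and 49.2 ± 9.73 RPKM in wild-type cortex, and 71.3 ± 17.6 RPKM in deletion and 70.7 ± 11.6 RPKM in wild-type cerebellum. The fold changes of Gad1 were below the size threshold, at 0.54 ± 0.18 (adjusted p = 0.0339) for striatum against cortex, 0.03 ± 0.18 (adjusted p = 0.919) for striatum against cerebellum and -0.51 ± 0.18 (adjusted p = 0.0185) for cortex against cerebellum in wild type.

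Slc6a11, the astrocytic transporter GAT-3, averaged 83.5 ± 31.6 RPKM in deletion and 76.5 ± 30.1 RPKM in wild-type striatum, 28.8 ± 6.64 RPKM in deletion and 24.6 ± 8.61 RPKM in wild-type cortex, and 24.9 ± 16.4 RPKM in deletion and 17.1 ± 9.97 RPKM in wild-type cerebellum. It was called higher in striatum than in cortex, at 1.64 ± 0.34 (adjusted p = 0.0014) in wild type, with 1.52 ± 0.32 in deletion libraries, and than in cerebellum, at 2.17 ± 0.34 (adjusted p = 1.41e-05) in wild type, with 1.72 ± 0.33 in deletion libraries. The 8 general astrocyte markers had a median wild-type fold change of 0.28 for striatum against cortex, with 0 of 8 called. Abat averaged 68.6 ± 12.03 RPKM in deletion and 61.4 ± 18.9 RPKM in wild-type striatum, 38.2 ± 5.59 RPKM in deletion and 33.5 ± 10.9 RPKM in wild-type cortex, and 47.8 ± 8.93 RPKM in deletion and 42.0 ± 6.98 RPKM in wild-type cerebellum, and its wild-type fold change of 0.88 ± 0.20 (adjusted p = 0.0027) for striatum against cortex was below the size threshold. Of the chloride cotransporters, Slc12a5 was level, at 76.0 ± 4.996 RPKM in deletion and 76.3 ± 14.1 RPKM in wild-type striatum, 79.0 ± 7.66 RPKM in deletion and 76.2 ± 7.56 RPKM in wild-type cortex, and 73.9 ± 6.93 RPKM in deletion and 74.1 ± 9.01 RPKM in wild-type cerebellum. Slc12a2 averaged 6.02 ± 1.37 RPKM in deletion and 6.58 ± 3.05 RPKM in wild-type striatum, 5.07 ± 1.86 RPKM in deletion and 4.64 ± 1.45 RPKM in wild-type cortex, and 10.1 ± 3.60 RPKM in deletion and 10.1 ± 3.61 RPKM in wild-type cerebellum, and was called lower in cortex than in cerebellum, at -1.15 ± 0.25 (adjusted p = 0.000539) in wild type, with -1.02 ± 0.22 in deletion libraries. Slc12a2 is also a gene of choroid plexus epithelium, whose 10 markers summed to 36.5 to 6047 CPM in deletion and 40.0 to 13980 CPM in wild-type cerebellum, against 10.9 to 1105 CPM in deletion and 13.03 to 6570 CPM in wild-type cortex. None of the 10 was at 0 in all libraries of a group, and their part in this difference was not tested.

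In all, 28 members were tested in the regional contrasts. Striatum against cortex gave 8 members called higher and 0 lower, beside 4.76% of all 17633 genes tested called higher and 2.51% called lower. Striatum against cerebellum gave 13 higher and 2 lower, beside 15% and 7.7% of all genes. Cortex against cerebellum gave 7 higher and 5 lower, beside 13.7% and 9.07% of all genes. The members' median log2 fold changes were 0.52, 0.59 and 0.18 in these contrasts, and those of all genes 0.016, -0.0028 and -0.036. The striatum to cortex count was lower when striatum libraries poor in striatal markers were left out, which also lowers the number of libraries. Without the 5 wild-type striatum libraries whose mean striatal marker level was under 7 log2 CPM, which leaves 3, 3 members were called in that contrast: Gabrg1 at 1.13, Slc32a1 at 1.24 and Gad2 at 1.27. The fold changes of Gabre, Gabrq, Glra1, Glra2 and Slc6a11 were then 2.90, 2.47, 1.96, 1.28 and 1.11, with adjusted p of 0.063, 0.206, 0.421, 0.127 and 0.140, against 5.01, 4.43, 3.60, 1.36 and 1.64 with all libraries. Glra3 was not called in striatum against cerebellum in the same setting (2.35, adjusted p = 0.205).

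Comparing deletion with wild-type animals asks whether loss of 1 copy of the interval goes with altered inhibitory transmission genes. No member was called in any tissue at an adjusted p under 0.05 by edgeR, of 27 tested in striatum, 26 in cortex and 27 in cerebellum. Over all genes, 0.128%, 0.13% and 0.138% were called in these tissues. None of the members had an unadjusted p under 0.05 in edgeR or in DESeq2, against 3.32%, 2.03% and 2.08% of all genes in edgeR. DESeq2 called 0 members, and 0.239%, 0.106% and 0.159% of all genes. Deletion and wild-type libraries overlapped for every member in every tissue, 87 of 87 times. The same count was not made over all genes, so it does not set the members apart from other genes. Gabra6 and Gabrr1 in striatum and cortex, Glra1 in cortex, and Gabrr1 and Glra3 in cerebellum had too few counts to be tested.

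**Figure D3:**
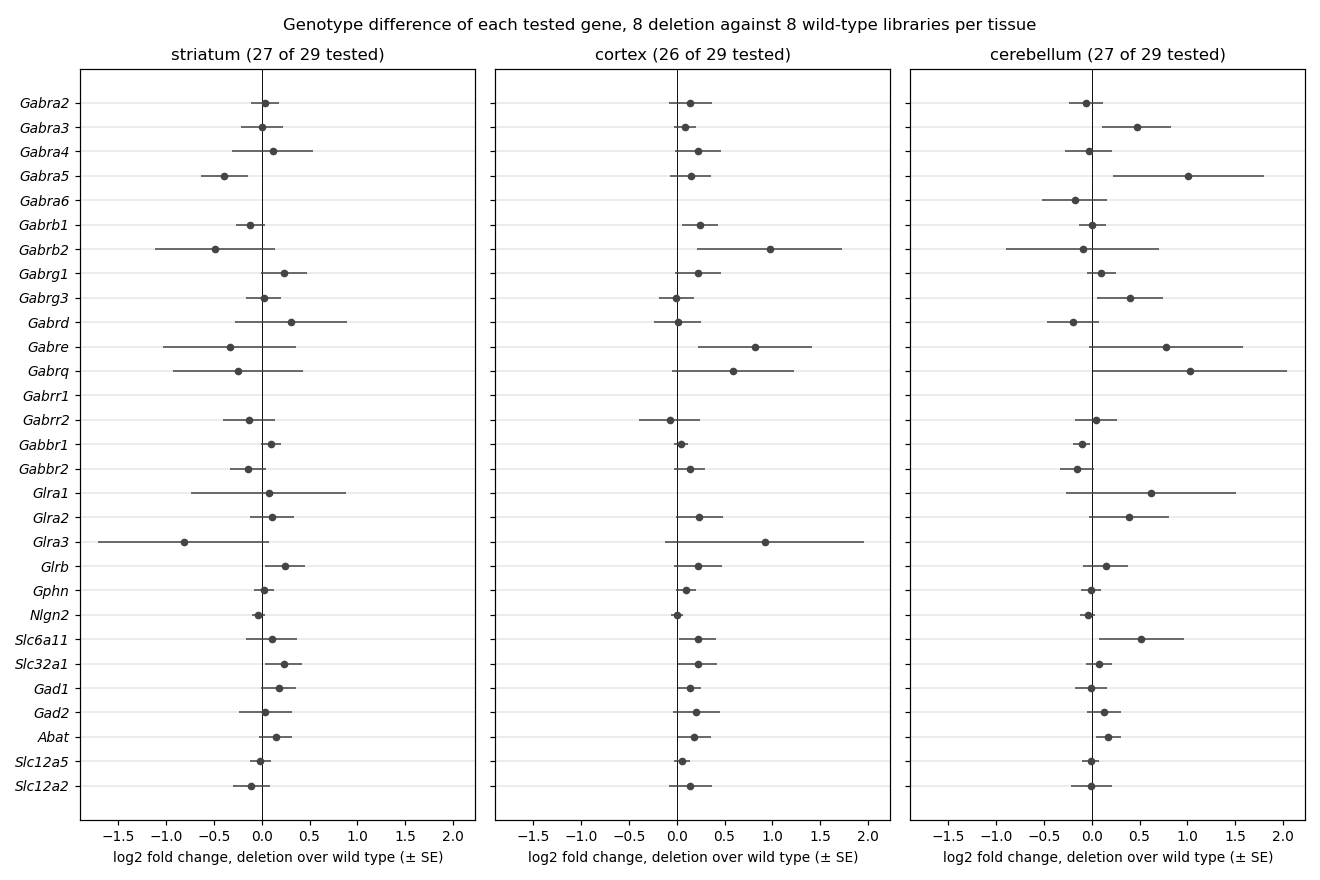
Log2 fold change of deletion over wild type for each tested member in striatum, cortex and cerebellum, with bars of 1 standard error from the edgeR fit of 8 against 8 libraries; members not tested have no point. The cortex values lie mostly above 0, 24 of 26, and none passed the threshold.

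In striatum, the member of smallest p was Gabra5, whose levels are given above. Its fold change was -0.39 ± 0.25 (unadjusted p = 0.131, adjusted p = 1), and the wild-type mean was exceeded by 0 of 8 deletion libraries. The wild-type maximum was W813, and without that library the fold change was -0.07. Slc32a1 had lowest, median and highest levels of 52.8, 91.97 and 106 RPKM in deletion and 31.4, 85.9 and 112 RPKM in wild type, a fold change of 0.23 ± 0.19 (unadjusted p = 0.250, adjusted p = 1). Glrb levels were 19.6, 25.6 and 40.9 RPKM in deletion and 10.4, 26.3 and 37.9 RPKM in wild type, a fold change of 0.24 ± 0.21 (unadjusted p = 0.262, adjusted p = 1). Gabrg1 came next, at 3.95, 6.68 and 12.1 RPKM in deletion and 3.72, 5.34 and 8.05 RPKM in wild type, with 0.23 ± 0.24 (unadjusted p = 0.344, adjusted p = 1). Between 5 and 6 of the 8 deletion animals lay above the mean of wild type for these last genes. Among marker lists in these libraries, striatal identity had 15 of 15 fold changes above 0 (median 0.44), cortical identity 11 of 13 below 0 (median -0.59, 1 at an unadjusted p under 0.05) and microglia 8 of 8 above 0 (median 0.18, 2 at an unadjusted p under 0.05), with 0 called in any list. Of choroid plexus markers, 8 of 8 tested had a fold change below 0, 4 of them at an unadjusted p under 0.05 and 0 called, and the 10 of the list summed to 36.4 to 98.9 CPM in deletion and 42.6 to 5024 CPM in wild type. Without the libraries of high choroid plexus level, 15 of 27 members had a fold change above 0 and none was called. With striatal and thalamic markers as covariates, 14 of 27 were above 0. The part of the other lists was not tested. Over the 27 members in all libraries the median was 0.025 with 16 above 0, beside -0.0060 and 48.2% above 0 for all genes.

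In cortex, 24 of 26 members had a fold change above 0, with a median of 0.16, beside 0.0038 and 50.9% above 0 for all genes. The smallest p belonged to Gabre, at 0.82 ± 0.60 (unadjusted p = 0.191, adjusted p = 0.965), with 4 of 8 deletion animals above the mean of wild type. Gabrb2 followed at 0.97 ± 0.76 (unadjusted p = 0.220, adjusted p = 0.965), with 4 of 8, and without deletion library D801 its value was 0.23. Gabrb1 ran at 5.19, 6.65 and 15.1 RPKM in deletion and 5.48, 6.71 and 8.70 RPKM in wild type, a fold change of 0.24 ± 0.19 (unadjusted p = 0.225, adjusted p = 0.965). Slc6a11 ran at 20.4, 28.2 and 43.6 RPKM in deletion and 15.9, 20.1 and 39.7 RPKM in wild type, a fold change of 0.22 ± 0.19 (unadjusted p = 0.270, adjusted p = 0.965), with 7 of 8 above the wild-type mean. In these libraries 15 of 15 striatal identity markers had a fold change above 0 (median 0.46), with the summed levels given above. Of choroid plexus markers 7 of 7 tested were below 0 (median -0.83), as were 11 of 13 cortical identity markers (median -0.13). None of these markers was called, and the part of the choroid plexus and cortical lists was not tested. Without the wild-type cortex libraries W807, W808, W813 and W814, which had the fewest striatal markers, 10 of 26 members were above 0. The median was then -0.03 and Slc6a11 had the opposite sign, at -0.11. These 4 libraries also had length scores (defined below) under 0, at -0.31, -0.56, -0.50 and -0.19. W813 had the highest choroid plexus level of wild-type cortex. With striatal markers as a covariate and no cortex library left out, 22 of 26 members were above 0 and the median was 0.14. No member was called in either setting.

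In cerebellum the median over 27 members was 0.043 with 15 above 0, beside -0.0050 and 48.5% for all genes. Abat ran at 36.4, 45.0 and 58.4 RPKM in deletion and 32.1, 43.6 and 52.3 RPKM in wild type, a fold change of 0.17 ± 0.13 (unadjusted p = 0.205, adjusted p = 0.9997). The other members of smallest p rested on D809, the library with the fewest cerebellar markers. Gabra3 ran at 3.65, 7.30 and 21.6 RPKM in deletion and 2.97, 5.20 and 10.3 RPKM in wild type, a fold change of 0.47 ± 0.36 (unadjusted p = 0.208, adjusted p = 0.9997), and 0.10 without D809. Gabra5 gave 1.01 ± 0.79 (unadjusted p = 0.217, adjusted p = 0.9997), and 0.21 without it. Slc6a11 ran at 9.51, 23.9 and 57.9 RPKM in deletion and 5.67, 16.6 and 33.2 RPKM in wild type, a fold change of 0.52 ± 0.44 (unadjusted p = 0.255, adjusted p = 0.9997), and 0.20 without it. Of the 8 deletion animals, 6 lay above the mean of wild type for Abat, 5 for Gabra3, 5 for Gabra5 and 5 for Slc6a11. All 5 tested brainstem markers had a fold change above 0 (median 0.94, 0 called), and the 8 of that list summed to 2.46 to 93.9 CPM in deletion, with D809 highest, and 0.959 to 41.8 CPM in wild type. None of those 8 was at 0 in all libraries of either group. All 12 cerebellar identity markers had a fold change below 0 (median -0.28) and 8 of 8 microglia markers one above 0 (median 0.11), 0 called in both lists. The part of these lists was not tested beyond the values without D809.

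The difference between sexes in the genotype effect was called for 0 members and 0% of all genes in each of the 3 tissues (edgeR). Gabra3 in cortex was the member with an unadjusted p under 0.05 in edgeR (unadjusted p = 0.0058, adjusted p = 0.9996), at -0.21 in males and 0.39 in females, 4 deletion against 4 wild type each. Differences between tissues in the genotype effect were likewise called for 0 of 28 members and 0% of all genes in each of the 3 pairs of tissues. Gabra5 was the member at an unadjusted p under 0.05 in edgeR, with a striatum minus cerebellum difference of -1.54 ± 0.73 (unadjusted p = 0.0397, adjusted p = 1). Both parts of that difference were smaller without 1 library: the striatum value was -0.07 without W813 and the cerebellum value 0.21 without D809. The difference itself was not refitted without them.

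Within groups, the levels of many members went along with a score of the whole library that sets long against short transcripts. For each library a length score was taken as the mean log2 deviation of genes in the upper quartile of transcript length minus that in the lower quartile, members excluded. It spanned -0.63 to 0.66 in deletion and -0.85 to 0.78 in wild-type striatum, -0.59 to 0.90 in deletion and -0.56 to 0.60 in wild-type cortex, and -0.67 to 0.95 in deletion and -0.60 to 1.01 in wild-type cerebellum, so genotypes overlapped. Gabrb2 followed this score almost linearly, with Pearson's r of 0.990 in striatum, 0.988 in cortex and 0.988 in cerebellum (16 libraries each). Spearman's rho was 0.985, 0.974 and 0.982 (adjusted permutation p = 0.000174, 0.000174 and 0.000174). The permutation p was 1e-05 for each r, the smallest that the resampling can give, and 0.000124 after adjustment over 87 relations of 29 members in 3 tissues. Without the 2 libraries farthest from the median score, r was 0.988, 0.985 and 0.986. Taken by genotype, r came to 0.985 in deletion and 0.996 in wild-type striatum, 0.992 in deletion and 0.982 in wild-type cortex, and 0.985 in deletion and 0.993 in wild-type cerebellum.

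A second score, of AT-rich against GC-rich transcripts, ran almost in step with the first. Between the scores, r was 0.964, 0.992 and 0.979 and rho 0.950, 0.991 and 0.938 in striatum, cortex and cerebellum (16 libraries each, adjusted permutation p = 1.5e-05 over 9 relations). Without the 2 libraries farthest from the median, r was 0.962, 0.986 and 0.954. Gabrb2 had an r of 0.970, 0.983 and 0.955 with the AT score and a rho of 0.965, 0.974 and 0.915 (adjusted permutation p = 1.5e-05), with 0.977, 0.977 and 0.922 without 2. For Nlgn2 r was 0.0630, -0.0720 and 0.405 (adjusted permutation p = 0.818, 0.818 and 0.153), with -0.017, -0.157 and 0.524 without 2. The longest annotated Gabrb2 transcript has 3989 bases and 44.0% G and C, at percentile 59.5 of the genes for length and 19.8 for G and C. That of Nlgn2 is longer, at 5568 bases (percentile 81.2), and far richer in G and C, at 60.7% (percentile 96.6). Length and base composition cannot be told apart by these scores, and the length score is used below only as a name for their shared axis.

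Other members shared the relation in part. At an adjusted permutation p under 0.05 for Pearson's r, 15 members were positively related to the score in striatum, 19 in cortex and 15 in cerebellum, and 1 negatively in each tissue. Such relations were common among all genes: at the smallest r of those members, 30.9%, 32.6% and 30.8% of genes were positively related in striatum, cortex and cerebellum, and 29.9%, 30.4% and 31.3% negatively at its reverse. Over genes in neither length group of the score, the positive shares were 25.7%, 27.8% and 25.9%. By r, the same 12 members were positive in all 3 tissues: Gabra4, Gabrb1, Gabrb2, Gabbr1, Gabbr2, Glra3, Glrb, Gphn, Gad2, Abat, Slc12a5 and Slc12a2. Of these 12, rho did not pass for Gabra4, Gad2 and Abat in striatum (adjusted permutation p = 0.0576, 0.0657 and 0.105). In cerebellum it did not pass for Gabrb1, Glra3 and Abat (adjusted permutation p = 0.14, 0.0725 and 0.105). Their cerebellum r was 0.469, 0.448 and 0.372 without the 2 farthest libraries. The r for Glrb was 0.835, 0.915 and 0.871 in striatum, cortex and cerebellum. The negative ones were Gabrr2 in striatum (r = -0.824, -0.768 without the 2 farthest libraries), Gabrd in cortex (-0.605, and -0.294 without 2) and Slc32a1 in cerebellum (-0.728, and -0.439 without 2). Nlgn2 had r of 0.216, -0.0440 and 0.481, none past the threshold. Without the 2 farthest libraries its r was 0.168, -0.119 and 0.641, so cerebellum came out higher. The highest Gabrb2 library exceeded the lowest by 44.5-fold in striatum, 25.3-fold in cortex and 77.5-fold in cerebellum, and that of Nlgn2 by 1.33-, 1.34- and 1.47-fold. With the score as a covariate, an analysis added after the data had been seen, the cortex fold change of Gabrb2 for deletion against wild type was 0.10, and the members' median there was 0.06 with 21 of 26 above 0. In striatum the covariate turned the direction of Gabrb2, from -0.49 ± 0.63 (unadjusted p = 0.450) without it to 0.23 (unadjusted p = 0.0493) with it. Glrb in striatum was at 0.39 with the covariate (unadjusted p = 0.00371, adjusted p = 0.365) and 0.24 ± 0.21 without it. No member was called in that fit, and 4 of 27 members in striatum, 5 of 26 in cortex and 2 of 27 in cerebellum changed sign.

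**Figure D4:**
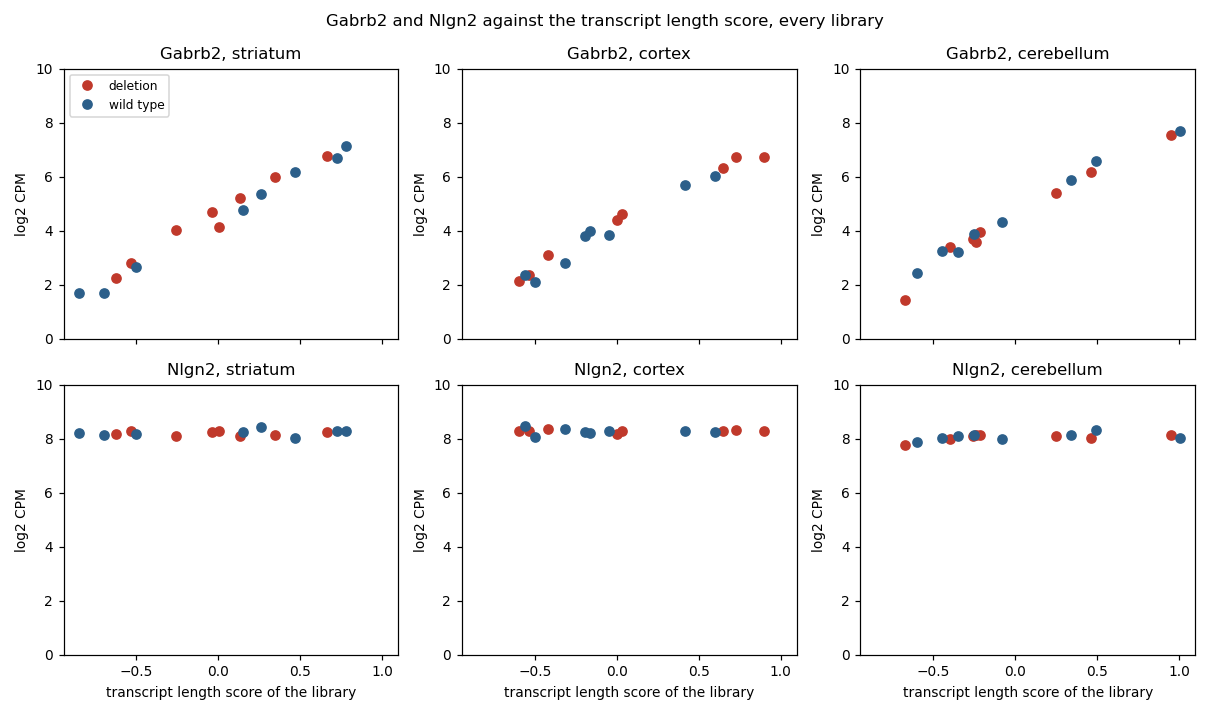
Level of Gabrb2 (upper row) and Nlgn2 (lower row) in log2 CPM against the length score of the library, a difference of mean log2 deviations, in striatum, cortex and cerebellum, 16 libraries each coloured by genotype. Gabrb2 lies on a steep line in each tissue, with r of 0.990, 0.988 and 0.988, whereas Nlgn2 is nearly flat.

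Ratios within a library compare partners under the same depth, and are given as a description. The log2 ratio of Gad1 to Gad2 had a lowest, median and highest value of -0.39, 0.04 and 0.16 in deletion and -0.40, -0.11 and 0.68 in wild-type striatum. In cortex it was 0.22, 0.77 and 1.09 in deletion and 0.22, 0.9978 and 1.46 in wild type, and in cerebellum 1.01, 1.86 and 2.08 in deletion and 1.54, 1.90 and 2.18 in wild type. The median of this ratio was lowest in striatum and highest in cerebellum. Its absolute level depends on the gene length used, here union exon length, whereas another length would shift all groups alike. The log2 ratio of Slc12a5 to Slc12a2 had medians of 3.63 in deletion and 3.75 in wild-type striatum, 4.03 in deletion and 3.95 in wild-type cortex, and 3.10 in deletion and 3.03 in wild-type cerebellum. For Gabbr1 to Gabbr2 the medians were 2.15 in deletion and 1.96 in wild-type striatum, 1.25 in deletion and 1.33 in wild-type cortex, and 1.46 in deletion and 1.46 in wild-type cerebellum. Gabra6 to Gabra4 turned over between tissues, at 5.72 in deletion and 5.93 in wild-type cerebellum, and -9.17 in deletion and -8.79 in wild-type cortex. Deletion and wild-type libraries overlapped for each ratio in each tissue.

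**Figure D5:**
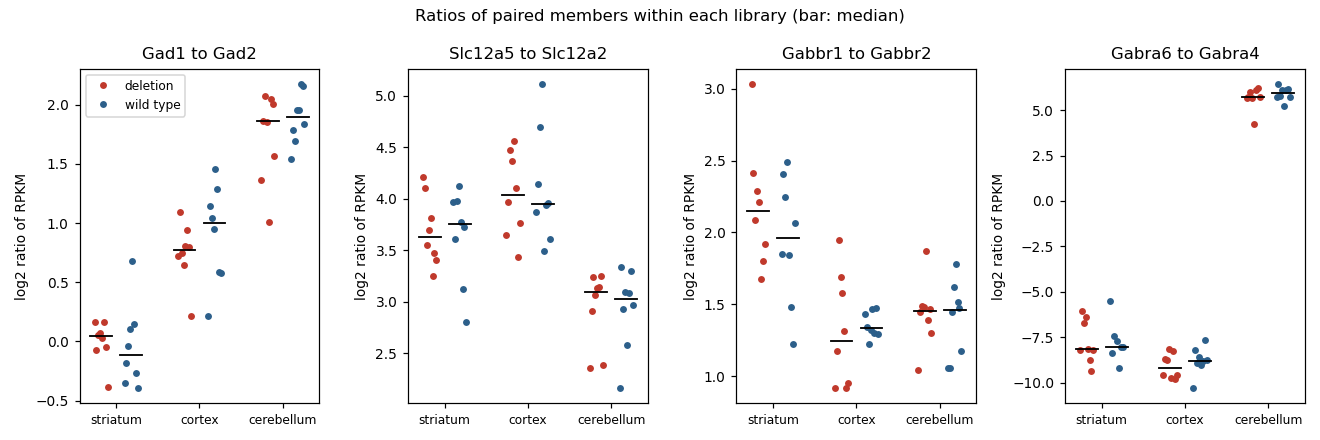
Log2 ratios of 4 pairs of members within each library, by tissue and genotype, 8 libraries per group with deletion left of wild type and a bar at the median. The Gad1 to Gad2 ratio steps up over striatum, cortex and cerebellum, and genotypes overlap throughout.

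Of 35 further genes of the pathway (auxiliary receptor proteins, other transporters, adaptors and trafficking factors), 32 were tested in striatum, 31 in cortex and 32 in cerebellum. None was called for genotype by edgeR in any tissue, beside 0.128%, 0.13% and 0.138% of all genes. By edgeR, 1 in striatum and 1 in cortex had an unadjusted p under 0.05, beside 3.32% and 2.03% of all genes. Both were Kctd12, an auxiliary subunit of GABA-B receptors, in edgeR at 0.46 ± 0.20 in striatum (unadjusted p = 0.0371, adjusted p = 1) and 0.37 ± 0.12 in cortex (unadjusted p = 0.00622, adjusted p = 0.965). Next by p came Kctd8 (0.50 ± 0.28) and Gabarapl2 (0.16 ± 0.10) in striatum, Wnk3 (0.46 ± 0.26) and Glul (-0.13 ± 0.08) in cortex, and Kctd12b (0.32 ± 0.21), Iqsec3 (0.29 ± 0.21) and Nsf (0.16 ± 0.13) in cerebellum. Regional calls among 32 tested were 1 higher and 1 lower for striatum against cortex, beside 4.76% and 2.51% of all genes. They were 8 and 5 for striatum against cerebellum, beside 15% and 7.7% of all genes. For cortex against cerebellum they were 4 and 5, beside 13.7% and 9.07%. Hap1, a huntingtin-associated trafficking protein, was higher in striatum than in cortex, at 1.94 ± 0.26, and the transporter Slc6a13 lower, at -1.08 ± 0.32. Slc6a5, the glycine transporter of glycinergic neurons, was lower than in cerebellum, at a log2 fold change of -8.30 ± 0.48 in striatum and -8.78 ± 0.50 in cortex, as was the transporter Slc6a12, at -2.94 ± 0.44 and -2.27 ± 0.43. The receptor-associated protein gene Shisa7 was higher than in cerebellum, at 3.55 ± 0.18 in striatum and 3.42 ± 0.18 in cortex, as was Kctd16, at 3.21 ± 0.54 and 3.36 ± 0.53.

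Some members share exon sequence with a neighbour, and the sources used here do not say whether counting used strand. Gabra4 and Gabrb1 overlap on opposite strands over 46 exon bases, Slc32a1 and Gm14205 over 697, Gabra5 and Gm9962 over 148, Glra1 and Gm12236 over 141, and Gphn and Gm48226 over 147, so reads there could be divided between them.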

How the data were processed

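RNA of 48 tissue samples from 16 mice was measured in stranded mRNA libraries, per the labels' protocols. The authors deposited whole-number read counts per gene, and the submitters' processing notes name FastQC 0.10.1, STAR 2.4.2a, Picard and SAMtools with the builds GRCm38 and mm8, without their roles. The counter, its annotation and its strand setting were not given in those notes or the labels. Of 47161 rows, 92 were spike-in controls (0.0614% to 1.09% of counts) and were left out.

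Each tissue was fitted with edgeR 4.0.16 (quasi-likelihood, robust, TMM scaling, filterByExpr) with sex and genotype as terms, and regional contrasts were fitted in the 24 wild-type libraries with tissue and sex. P-values were adjusted over all genes tested (Benjamini-Hochberg), with limma 3.58.1 and DESeq2 1.42.0 in R 4.3.3 as alternatives. RPKM used TMM library sizes and union exon lengths of GENCODE vM21 (GRCm38), whose gene identifiers matched 46574 of 47069 genes. Log2 CPM used a prior count of 2. For a library with 0 counts, the level that 3 counts would have is quoted as an upper limit only. Means and fits kept the 0. The length score used log2(CPM + 0.5) over 13850 protein-coding genes. Standard errors are the absolute fold change over the square root of F. The fitting scripts were tested on simulated data.

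All members are described with their regional levels. For genotype, the called members of each tissue were named, filled up to 4 with those of smallest p, and for the 35 further pathway genes up to 3 of smallest p per tissue and up to 2 called per direction in each regional contrast. Members and lists were chosen with earlier results of these data known, and the hypothalamic marker list and 4 alternatives after seeing the data. Libraries of different tissues came from the same animals, per the labels, and their deviations from group means correlated within animals (median r of 0.373 for striatum and cortex, 0.239 for striatum and cerebellum, and 0.434 for cortex and cerebellum). The animal was therefore used as a replicate block in an alternative fit. Counting depth limits the precision of scarce members, and floors cover counting error only.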

Additional observations from a re-analysis of the deposited data

Results flagged for a closer look

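In 16 of 174 groups of 8 libraries, 1 library lay far from the other 7 (Dixon's test at 95%), and chance flags about 1 in 20. All levels here are log2 CPM. Deletion library D809 of cerebellum accounted for 4 of them: Gabra6 at 5.94 (the others 8.46 to 9.37), Gabrd at 5.98 (7.45 to 8.58), Gad1 at 8.00 (8.97 to 9.46) and Nlgn2 at 7.76 (7.98 to 8.15). Wild-type library W805 of cerebellum accounted for another 4: Slc12a2 at 7.65 (6.26 to 6.84), Gabrb1 at 6.17 (5.32 to 5.64), Glra3 at 0.03 (-4.04 to -2.31) and Slc32a1 at 6.56 (7.04 to 7.22). W805 had the highest length score among wild-type cerebellum libraries, at 1.01.

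In striatum, Gabra3 was 5.72 in deletion library D801 (6.74 to 7.35 in the others of its group), Gad1 was 8.82 in D811 (9.20 to 9.43) and Abat was 9.55 in D812 (8.85 to 9.11). Gabra5 was 7.13 in wild-type library W813 (4.98 to 5.74). In cortex, Gabrg1 was 5.32 in deletion library D812 (3.84 to 4.36) and Nlgn2 was 8.16 in D802 (8.27 to 8.34). Among wild-type cortex libraries, Gabbr2 was 7.59 in W813 (7.91 to 8.19), and Gabrr1, a gene near 0 counts throughout, was -1.70 in W805 (-4.04 to -2.99).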

How the results depend on the processing

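For deletion against wild type, 0 members were called in every tissue under every alternative run: DESeq2, DESeq2 size factors, no filter on low counts, no sex term, marker or length covariates, libraries left out by markers, and each library left out in turn (0 to 0). Directions depended more on the setting. For the 4 members of smallest p in each tissue, 283 of 284 alternative values kept direction and call, and 1 reversed (Slc6a11 in cortex, -0.11 without the libraries of wild-type animals W807, W808, W813 and W814). Over all tested members, that setting changed the sign of 16 of 26 in cortex, and the striatal marker covariate that of 4 of 26. Leaving out striatum libraries of high choroid plexus level changed the sign of 7 of 27. The length score changed that of 4 of 27 in striatum (Gabrb2 among them), 5 of 26 in cortex and 2 of 27 in cerebellum. The replicate block on animal also gave 0 for genotype and for its differences between tissues. In the regional contrasts the replicate block called 10, 15 and 13 members for striatum against cortex, striatum against cerebellum and cortex against cerebellum, where the fit without it called 8, 15 and 12. It added Gabrd and Glra3 in the first and Glra3 in the last, and changed no other call. Leaving out each wild-type animal gave 8 to 9, 15 to 15 and 12 to 12. Without the striatum libraries of low striatal markers, 3 members were called for striatum against cortex, a change that goes along with 3 of 8 wild-type libraries left. The cause was not tested further. Of 498 alternative regional values, 490 kept direction and call, 8 fell below a threshold and none reversed. Leaving out the libraries richer in thalamic than striatal markers removed no wild-type striatum library, so no regional value was had. Depth limits Gabrr1, Glra1 and Glra3, which had 0 counts in some libraries.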
